A study of Mus musculus with 13 samples.

Results

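The 32 genes described here encode the enzymes and regulators of sterol and fatty acid synthesis, and they were followed in nuclei of the mouse hippocampus across cell classes, age and diet. They were matched by symbol among the 32285 genes of the count matrices, and 32 were found. By role, 7 act in the mevalonate steps (Acat2, Hmgcs1, Mvk, Pmvk, Mvd, Idi1 and Fdps) and 11 in the steps from squalene to cholesterol (Fdft1, Sqle, Lss, Cyp51, Tm7sf2, Msmo1, Nsdhl, Hsd17b7, Ebp, Sc5d and Dhcr7). A further 6 serve control and transport (Srebf1, Srebf2, Scap, Insig1, Insig2 and Stard4), and 8 make, lengthen or desaturate fatty acids (Acly, Acaca, Fasn, Elovl6, Scd1, Scd2, Fads1 and Fads2). Single-nucleus RNA was sequenced from the frozen hippocampus of 13 female hybrid mice, whose strain is written C3HB6F1 in the sample labels and C3B6F1 in the design text. Young mice were 5 months old and fed ad libitum (n = 3), and old mice fed ad libitum were 24 months old (n = 3, numbered 1, 2 and 4). Acute dietary restriction (n = 3) began at 20 months of age and long-term dietary restriction (n = 4) at 5 months, and mice of both kinds were 24 months old. No restricted young mice were part of the design, and each library was counted as 1 mouse, since the labels do not say whether hippocampi were pooled.

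Cholesterol is built from acetyl-CoA through mevalonate, isoprenoids, squalene and lanosterol, and in the adult brain it is made locally because lipoprotein cholesterol does not cross the blood-brain barrier. Astrocytes supply much of the sterol that neurons use, and oligodendrocytes need sterol and fatty acid synthesis for myelin. When membrane sterol is low, SCAP carries SREBP proteins to the Golgi, where they are cleaved, and the released fragments activate most genes of both pathways. When sterol is high, INSIG proteins hold the SCAP-SREBP complex in the endoplasmic reticulum, and Insig1 is itself an SREBP target.

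The libraries held 3524 to 12368 barcodes and 38546292 to 80538090 UMIs (unique transcript molecules), and 98041 nuclei were kept. Marker genes named 20 of 44 clusters, which put 81117 nuclei in 14 classes, each written as X-like; 16924 nuclei stayed in unnamed clusters. Astrocyte-like nuclei (7453) raised 10 of 10 astrocyte markers, and oligodendrocyte-like nuclei (10029) raised 12 of 12 oligodendrocyte markers. Counts were summed per mouse and class, and levels are given as CPM, the UMIs of a gene scaled to a fixed total of UMIs in that sum. Of 104391 distinct barcodes, 1358 occurred in more than 1 library. The libraries numbered 1 of the 4 groups deviated together from their group means in astrocyte-like nuclei (correlations of 0.24 to 0.53) and in granule-like nuclei (0.40 to 0.81), so values without them are given where a result rests on them. A lower sum per class cannot be told apart from a change in which nuclei the class holds.

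The 32 genes together were most abundant in astrocyte-like nuclei, at 1758 ± 324 CPM (SD, n = 13 mice), and in oligodendrocyte-like nuclei, at 1693 ± 276 CPM (n = 13). The ranges of these 2 classes, 1276 to 2240 and 1396 to 2444 CPM, overlapped. Their order turned with the group. Astrocyte-like nuclei were higher in every old mouse fed ad libitum and oligodendrocyte-like nuclei in every acutely restricted mouse, and the young and the long-term mice were mixed. Oligodendrocyte precursor-like nuclei followed at 937 ± 46.3 CPM (n = 13) and subicular or cortical excitatory-like nuclei at 849 ± 61.4 CPM (n = 12). The remaining classes lay between 733 ± 178 CPM in endothelial-like nuclei (n = 8) and 509 ± 24.7 CPM in granule-like nuclei (n = 13), the dentate gyrus neurons. Every mouse was higher in astrocyte-like and in oligodendrocyte-like nuclei than any mouse in precursor-like nuclei (864 to 1009 CPM). Endothelial-like, inhibitory-like, CA3-like, mural-like, fibroblast-like, Cajal-Retzius-like, mossy-like, CA1-like and microglia-like nuclei followed in this order, and neighbours in it overlapped, so the order among them is not resolved. The 24 unnamed clusters are in none of these sums.

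Sorted by role, astrocyte-like nuclei led for the squalene-to-cholesterol steps at 347 ± 120 CPM, against 212 ± 39.7 CPM in oligodendrocyte-like and 86.8 ± 9.29 CPM in granule-like nuclei. The mevalonate steps stood at 129 ± 48.7 CPM in astrocyte-like, 122 ± 43.3 CPM in endothelial-like and 104 ± 33.4 CPM in oligodendrocyte-like nuclei, with overlapping ranges. For fatty acid synthesis and desaturation the order of the first 2 classes was turned, with 1108 ± 198 CPM in oligodendrocyte-like and 973 ± 141 CPM in astrocyte-like nuclei. Most of the oligodendrocyte-like sum came from Acaca (527 CPM) and Scd2 (381 CPM), at 283 and 214 CPM in astrocyte-like nuclei. Elovl6 was also higher in oligodendrocyte-like nuclei (126 against 86.0 CPM), and Acly and Scd1 were nearly equal. Fads2 (245 against 5.69 CPM), Fads1 (87.5 against 15.5 CPM) and Fasn (20.9 against 15.7 CPM) were higher in astrocyte-like nuclei. Acaca and Scd2 also made up a large part of the whole set's oligodendrocyte-like sum of 1693 CPM. Control and transport genes summed to 308 ± 43.9 CPM in astrocyte-like and 269 ± 28.4 CPM in oligodendrocyte-like nuclei.

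Gene by gene, 16 of the 32 had their highest class mean in astrocyte-like nuclei: Acat2, Hmgcs1, Mvd, Idi1, Fdft1, Sqle, Cyp51, Msmo1, Nsdhl, Hsd17b7, Dhcr7, Srebf1, Srebf2, Fasn, Fads1 and Fads2. In oligodendrocyte-like nuclei 6 were highest (Mvk, Scap, Insig1, Acaca, Scd1 and Scd2), in endothelial-like nuclei 4 (Pmvk, Fdps, Ebp and Stard4) and in fibroblast-like nuclei 2 (Tm7sf2 and Insig2). These means pool all groups. Insig1 averaged 28.5 CPM in oligodendrocyte-like and 27.6 CPM in astrocyte-like nuclei, but was higher in astrocyte-like nuclei in every old mouse fed ad libitum. Lss was highest in Cajal-Retzius-like, Acly in microglia-like, Elovl6 in precursor-like and Sc5d in subicular or cortical excitatory-like nuclei. For 3 of the 32 genes every mouse of the leading class lay above every mouse of the next class, so for the other 29 the first place is not resolved from the second by the ranges.

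Those 3 genes were the desaturases Fads1 and Fads2, which act on polyunsaturated fatty acids, and Stard4, a carrier of free sterol. Fads2 stood at 245 CPM in astrocyte-like nuclei, at 59.8 CPM in mural-like nuclei, the next class, and at 5.69 CPM in oligodendrocyte-like nuclei. Fads1 stood at 87.5 CPM in astrocyte-like and at 36.2 CPM in microglia-like nuclei, and at 15.5 CPM in oligodendrocyte-like nuclei, the lowest class. Stard4 stood at 33.0 CPM in endothelial-like nuclei and at 5.60 CPM in astrocyte-like nuclei, the next class. The lowest endothelial-like mouse had 14.2 CPM of Stard4 and the highest astrocyte-like mouse 11.4 CPM. All genes of the set together had 512 UMIs in the endothelial-like sums of 8 mice. The separation of Stard4 thus rests on very few molecules.

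Several others were ordered alike in every mouse although their ranges over mice overlapped. Acaca, which encodes the acetyl-CoA carboxylase that commits carbon to fatty acids, averaged 527 CPM in oligodendrocyte-like and 283 CPM in astrocyte-like nuclei and was higher in the former in 13 of 13 mice. Scd2, a stearoyl-CoA desaturase, averaged 381 CPM in oligodendrocyte-like and 214 CPM in astrocyte-like nuclei, again higher in 13 of 13 mice. Msmo1, which encodes the sterol C4-methyl oxidase, had the opposite order, with 108 CPM in astrocyte-like and 45.0 CPM in oligodendrocyte-like nuclei, in 13 of 13 mice. Elovl6, the elongase of long saturated chains, averaged 196 CPM in precursor-like and 126 CPM in oligodendrocyte-like nuclei, in 13 of 13 mice. Free RNA from lysed cells enters every class, and the part it has in the low class values was not tested.

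**Figure D1:**
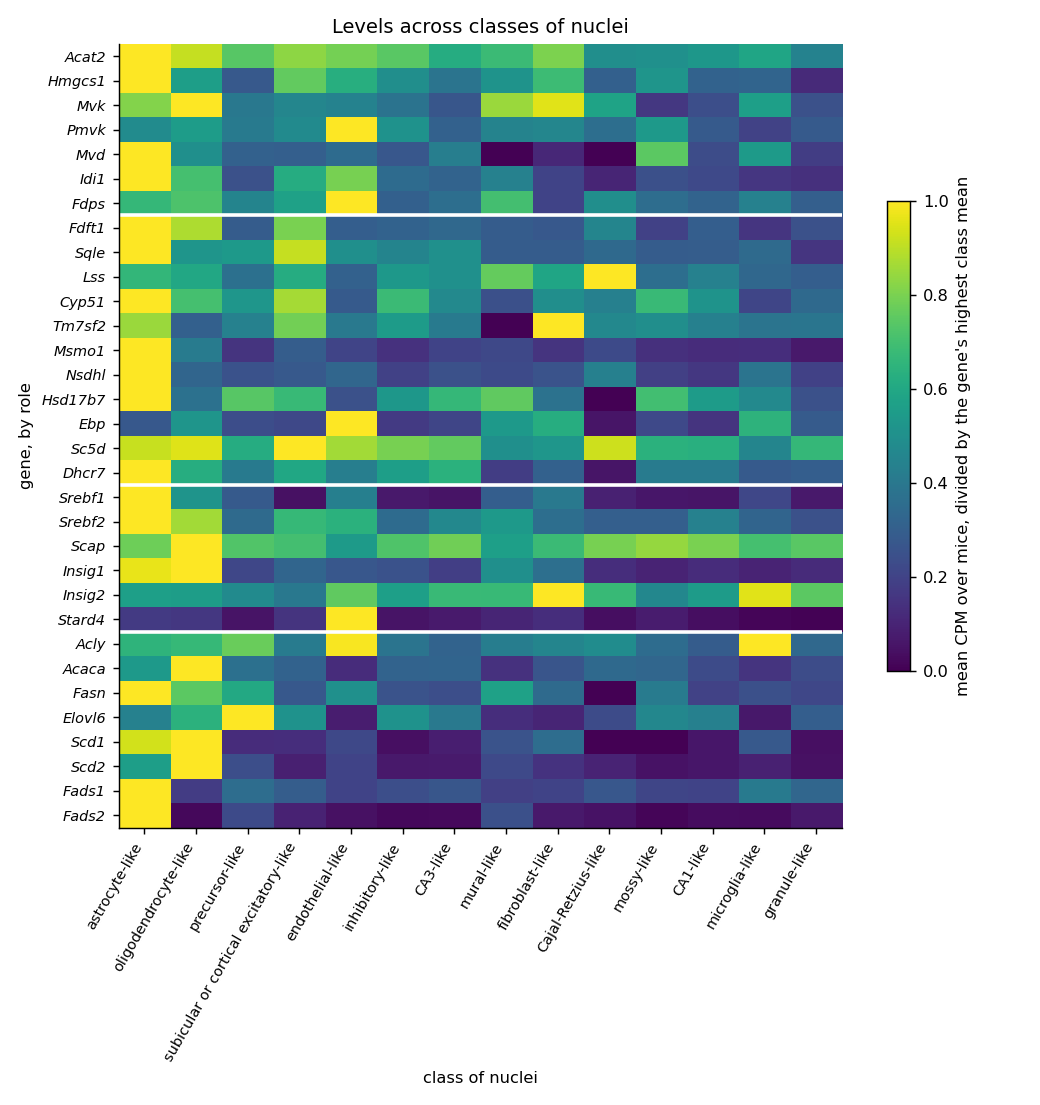
Mean level of each of the 32 genes (rows, by role) in 14 classes of nuclei (columns), as mean CPM over mice divided by the gene's highest class mean (colour, 0 to 1). The astrocyte-like column holds the highest value for 16 genes and the oligodendrocyte-like column for 6.

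The comparison of diets in old mice asked whether restriction begun early or late moved these transcripts, and in astrocyte-like nuclei their sum was lower under both. The summed level was 2240, 1964 and 2102 CPM in the young mice and 2113, 1877 and 2064 CPM in the old mice fed ad libitum. It was 1796, 1352 and 1276 CPM in the 3 mice on acute restriction, and 1510, 1549, 1489 and 1518 CPM in the 4 mice on long-term restriction. Every restricted mouse lay below every old mouse fed ad libitum, while young and old mice fed ad libitum overlapped. From a mean of 2018 ± 124 CPM (SD, n = 3) in the old mice fed ad libitum, the mean was 26.9% lower at 1475 ± 281 CPM (n = 3) under acute and 24.9% lower at 1516 ± 24.9 CPM (n = 4) under long-term restriction. Both restriction comparisons share the same 3 old mice fed ad libitum, so they are not independent of each other. No test was run on the sum.

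**Figure D2:**
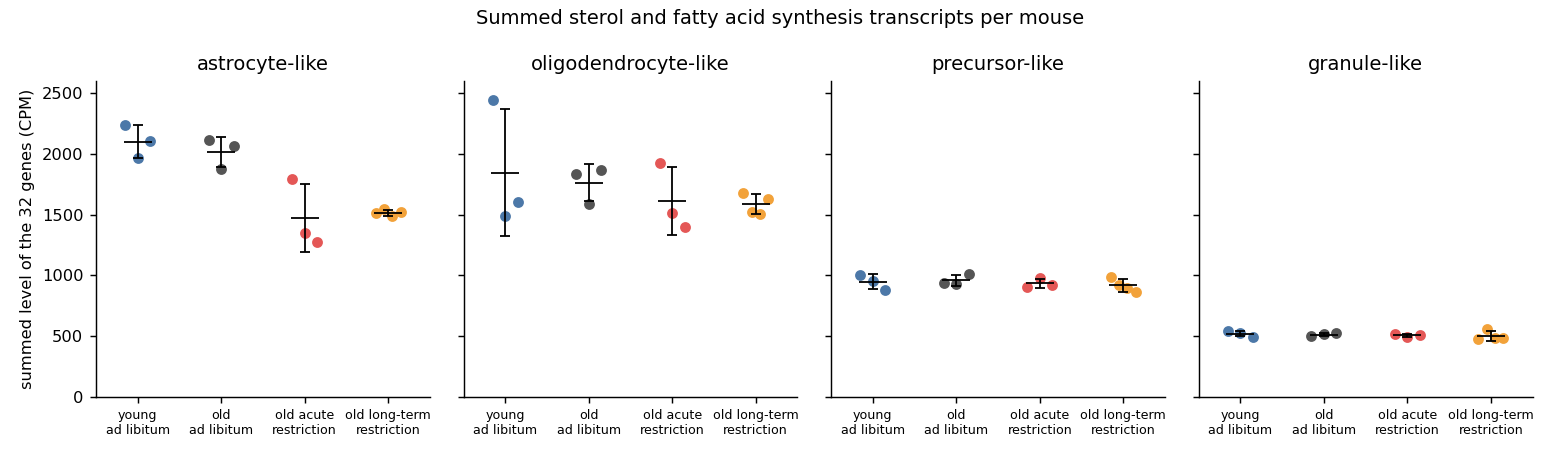
Summed level of the 32 genes in CPM per mouse (points) by group in 4 classes, with the mean and SD as bars. In astrocyte-like nuclei the 7 restricted mice sit between 1276 and 1796 CPM, below the 3 old mice fed ad libitum at 1877 to 2113 CPM, and in the other 3 classes the groups overlap.

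Of the 4 role groups, the steps from squalene to cholesterol were furthest below the controls in percent. They summed to 437, 381 and 421 CPM in old mice fed ad libitum, to 286, 180 and 219 CPM under acute restriction and to 259, 284, 257 and 260 CPM under long-term restriction. The groups did not overlap, and the means were 44.6% and 35.9% lower under acute and long-term restriction. The mevalonate steps summed to 163, 122 and 144 CPM in the same controls, to 83.5, 84.0 and 86.9 CPM under acute and to 91.4, 120, 88.8 and 103 CPM under long-term restriction, which was 40.8% and 29.7% lower without overlap. Fatty acid synthesis and desaturation was 23% lower under acute restriction, where the highest restricted mouse (1060 CPM) reached the lowest control (1059 CPM), and 23.4% lower under long-term restriction without overlap. Control and transport genes were 12.1% lower under acute restriction with overlap and 13.8% lower under long-term restriction without overlap.

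Single genes were tested with edgeR's quasi-likelihood test on the summed counts, with Benjamini-Hochberg adjustment over all genes of a class and a call at an adjusted p under 0.05. Of the 231 pairs of gene and class that passed the filter on low counts in 9 classes, the acute comparison called 0, against 0.21% of the 102882 pairs over all genes. At an unadjusted p under 0.05 there were 30 of 231, against 5.04% over all genes, and DESeq2 called 3 (Fdft1, Insig1 and Msmo1, all in astrocyte-like nuclei). Of the alternative settings, 11 called 1 to 5 pairs under acute restriction and 11 called 0. The term for the libraries numbered 1 and the replicate block were among those with calls. The long-term comparison called 0 of 231, against 0.0311% over all genes, with 23 at an unadjusted p under 0.05 (4.71% over all genes) and 0 by DESeq2. The p-values measure the spread between these samples, for which the labels do not record litters or preparation days.

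In astrocyte-like nuclei, where 32 of the 32 genes passed the filter, 30 had a log2 change below 0 under acute restriction, against 50.8% of the 11463 genes tested. Their median log2 change was -0.74, and that of all genes -0.01. At an unadjusted p under 0.05, 16 were lower, against 3.44% of all genes, and 0 were higher. For 12 genes every acutely restricted mouse lay below every old mouse fed ad libitum, against 5.54% of all genes, and 0 showed the opposite. By role, the median log2 change was -0.79 for the mevalonate steps (7 of 7 below 0), -0.76 for squalene to cholesterol (11 of 11), -0.46 for fatty acid synthesis and desaturation (8 of 8) and -0.12 for control and transport (4 of 6). The lowest adjusted p among the 32, by edgeR's quasi-likelihood test, was 0.0501, for Insig1 and Msmo1 alike, and 0.0262% of all genes were called. Among the alternative settings, Insig1 and Msmo1 were each called in 9, Fdft1 in 4 and Mvd in 2. The set was chosen with earlier results of these data known, so its counts beside the shares of all genes are a description.

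The genes given mouse by mouse in astrocyte-like nuclei were chosen after their values were seen. Insig1, the sterol-regulated anchor of SCAP, stood at 42.1, 23.8 and 36.1 CPM in old mice fed ad libitum and at 12.4, 5.73 and 13.6 CPM under acute restriction. Under long-term restriction it stood at 16.5, 20.0, 27.3 and 21.1 CPM, and in the young mice at 52.5, 44.8 and 42.6 CPM. The acutely restricted mice lay below all other mice, whereas the long-term group overlapped the old mice fed ad libitum. The sums of old mouse 4 fed ad libitum and acutely restricted mouse 2 held 249481 and 1047458 UMIs. Their Insig1 values of 36.1 and 5.73 CPM thus rest on few molecules. The log2 change of Insig1 was -1.69 (SE 0.30) under acute and -0.80 under long-term restriction, and the adjusted p by edgeR's quasi-likelihood test was 0.0501 and 0.907. Its acute change ranged from -1.91 to -1.30 when single mice were left out, and the adjusted p by edgeR ranged from 0.0351 to 0.454.

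Msmo1 stood at 202, 156 and 171 CPM in young mice and at 139, 100 and 140 CPM in old mice fed ad libitum. It stood at 76.6, 56.3 and 63.9 CPM under acute and at 78.5, 81.9, 63.8 and 71.8 CPM under long-term restriction. All 7 restricted mice lay below all 6 mice fed ad libitum, and all 3 young mice lay above the old ones. The log2 change of Msmo1 was -0.95 (SE 0.17, adjusted p 0.0501 by edgeR's quasi-likelihood test) under acute and -0.75 (adjusted p 0.372 by edgeR) under long-term restriction. With both restricted groups set together against the old mice fed ad libitum, a comparison added after the data were seen, Msmo1 fell by 0.85 on the log2 scale (SE 0.14, adjusted p 0.0372 by edgeR's quasi-likelihood test). It was the 1 called gene of 231 pairs there, against 0.164% over all genes, and the count ran from 0 (with median UMIs per nucleus as a covariate, or without the 4 libraries numbered 1) to 3 (without a filter, or with a term for the libraries numbered 1). When single mice were left out, the Msmo1 call was lost for 9 of 13 mice by edgeR: acute mice 2 and 3, all 4 long-term mice, old mice fed ad libitum 1 and 4 and young mouse 3.

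Fdft1, the squalene synthase at the branch point to sterols, stood at 65.4, 75.6 and 76.2 CPM in old mice fed ad libitum, at 48.3, 16.2 and 37.2 CPM under acute and at 51.0, 47.5, 54.6 and 48.7 CPM under long-term restriction. All 7 restricted mice lay below the controls, and the log2 change of Fdft1 was -1.05 (SE 0.25, adjusted p 0.189 by edgeR's quasi-likelihood test) and -0.51. Reads of Fdft1 may include reads of Ctsb, which overlaps it on the other strand. Mvd, the decarboxylase of the mevalonate steps, had the most negative acute estimate at -1.96 (SE 0.42, adjusted p 0.115 by edgeR), but it rested on 225 UMIs over all mice. Mvd stood at 15.4, 21.8 and 4.01 CPM in the controls and at 4.83, 4.77 and 3.14 CPM under acute restriction, so 1 control mouse lay within the restricted range. The sum of that control, old mouse 4 fed ad libitum, held 249481 UMIs, so its Mvd value rests on very few molecules.

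The other sterol genes did not pass the test either. Hmgcs1, the HMG-CoA synthase, stood at 59.0, 37.3 and 72.2 CPM in old mice fed ad libitum, at 29.7, 27.7 and 36.6 CPM under acute and at 29.9, 44.7, 38.7 and 43.1 CPM under long-term restriction. The acute group of Hmgcs1 lay below all controls (log2 change -0.79), while the long-term group overlapped them (-0.47). The acute log2 change was -1.61 for Stard4, -1.18 for Tm7sf2, a sterol C14 reductase, and -0.93 for Dhcr7, the last reductase of the pathway. It lay between -0.86 and -0.48 for the other squalene-to-cholesterol genes Cyp51, Hsd17b7, Ebp, Sc5d, Nsdhl, Sqle and Lss.

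The median of the fatty acid genes lay nearer to 0 than that of the sterol steps. Acaca stood at 319, 372 and 425 CPM in old mice fed ad libitum, at 254, 256 and 230 CPM under acute and at 237, 232, 317 and 286 CPM under long-term restriction. All 7 restricted mice lay below the controls, with a log2 change of -0.58 and -0.46 for Acaca. Fasn, the fatty acid synthase, stood at 27.2, 25.9 and 28.1 CPM in the controls, at 19.3, 8.59 and 16.2 CPM under acute and at 12.4, 16.5, 6.83 and 19.2 CPM under long-term restriction. Fasn thus did not overlap the controls under either restriction, with a log2 change of -0.86 and -0.83. The sums of old mouse 4 fed ad libitum and long-term mouse 3 held only 249481 and 439141 UMIs, so their Fasn values rest on few molecules. The acute log2 change was -0.93 for Scd1, -0.70 for Acly, which makes cytosolic acetyl-CoA, -0.34 for Elovl6, -0.31 for Scd2, -0.27 for Fads2 and -0.18 for Fads1.

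Of the 6 genes of control and transport, Insig1 had an acute log2 estimate of -1.69 (SE 0.30) and Stard4, with 122 UMIs over all mice, one of -1.61 (SE 0.64, adjusted p 0.692 by edgeR's quasi-likelihood test), and the other 4 lay between -0.22 and 0.07. Srebf2, which encodes the SREBP of the sterol branch, stood at 147, 158 and 132 CPM in old mice fed ad libitum, at 159, 119 and 109 CPM under acute and at 117, 142, 146 and 132 CPM under long-term restriction. The groups overlapped, and the log2 change of Srebf2 was -0.22 and -0.16. Srebf1, the SREBP of the fatty acid branch, was at -0.03 and -0.29, Scap at 0.02 and -0.30, and Insig2, the INSIG that is not a strong sterol target, at 0.07 and 0.07. Among the enzymes, the desaturases Fads1 and Fads2 had the acute estimates nearest to 0 (-0.18 and -0.27).

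**Figure D3:**
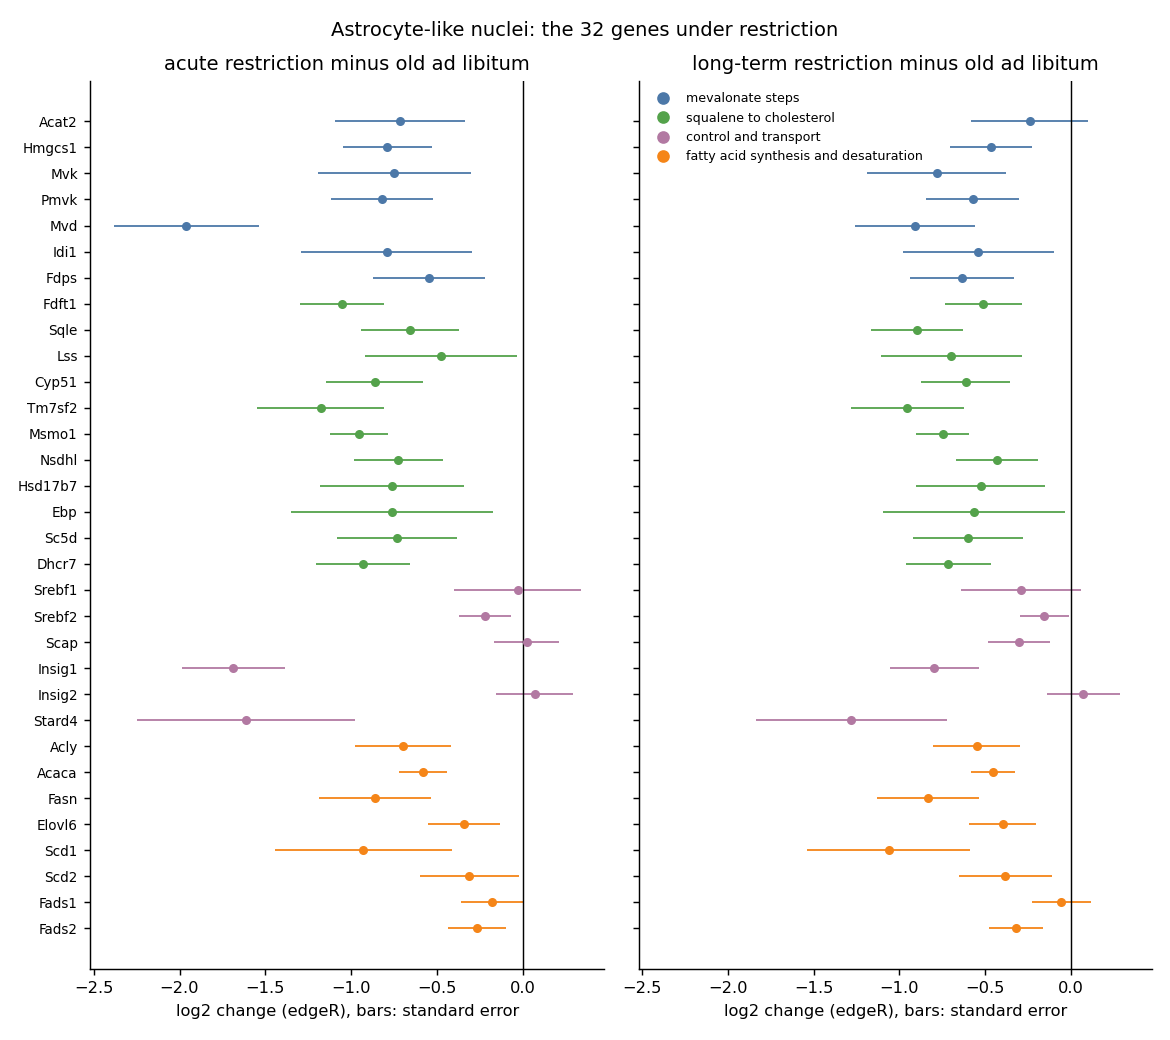
Log2 change (x axis) of each of the 32 genes (rows, coloured by role) in astrocyte-like nuclei under acute (left) and long-term (right) restriction against the same 3 old mice fed ad libitum, with bars for the standard error. Of the 32 points, 30 lie below 0 on the left and 31 on the right, and Srebf1, Scap and Insig2 lie nearest to 0 on the left.

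Long-term restriction gave 31 of 32 genes below 0 in astrocyte-like nuclei, against 50.7% of all genes. The median log2 change was -0.56, against -0.00 for all genes, and 14 were lower at an unadjusted p under 0.05, against 2.63% of all genes. For 11 genes the 4 mice lay below the controls without overlap, against 3.25% of all genes. The median was -0.61 for squalene to cholesterol, -0.57 for the mevalonate steps, -0.43 for fatty acid synthesis and desaturation and -0.30 for control and transport. Sqle, the squalene epoxidase, was at -0.90 (38.9, 29.0 and 32.1 CPM in the controls against 20.7, 20.6, 11.4 and 17.9 CPM), and its 4 mice lay below all 3 controls. Between the restrictions themselves the median of the 32 genes was 0.14 (long-term minus acute), and 3 were higher at an unadjusted p under 0.05, against 1.7% of all genes. Over all classes that comparison called 0 of 231 pairs by edgeR's quasi-likelihood test, against 0.0117% over all genes, with 9 at an unadjusted p under 0.05 (2.99% over all genes) and 0 by DESeq2.

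Depth and other cells' RNA differed between these libraries. The controls held 771, 315 and 82 astrocyte-like nuclei with median UMIs of 5026, 2854 and 2942.5, and control 1 was the deepest of all. The acutely restricted mice held 570, 329 and 811 nuclei with median UMIs of 2486.5, 3057 and 2273, and the long-term mice 825, 490, 121 and 1455 nuclei with 2542, 2802, 3507 and 3024. With the median UMIs as a covariate the median log2 change of the 32 genes was -0.60 under acute and -0.49 under long-term restriction. Without the 4 libraries numbered 1 it was -0.67 and -0.44, and it ranged from -0.76 to -0.60 and from -0.62 to -0.42 when single mice were left out. Summed over 10 granule cell markers, the level in astrocyte-like nuclei was 2915 to 3183 CPM in controls, 2848 to 3063 CPM under acute and 2527 to 3291 CPM under long-term restriction. Over 12 oligodendrocyte markers it was 228 to 350, 192 to 277 and 143 to 220 CPM in the same order, with none of the 12 at 0 in all mice, and 0 of the 10 tested were called under either restriction by edgeR (0 at an unadjusted p under 0.05). The oligodendrocyte markers were thus lower without overlap under long-term restriction, and their part in the sums was not tested. Over the 10 astrocyte markers the level was 13520 to 15494 CPM in controls, 13475 to 15021 CPM under acute and 12153 to 14397 CPM under long-term restriction, with overlap.

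**Figure D4:**
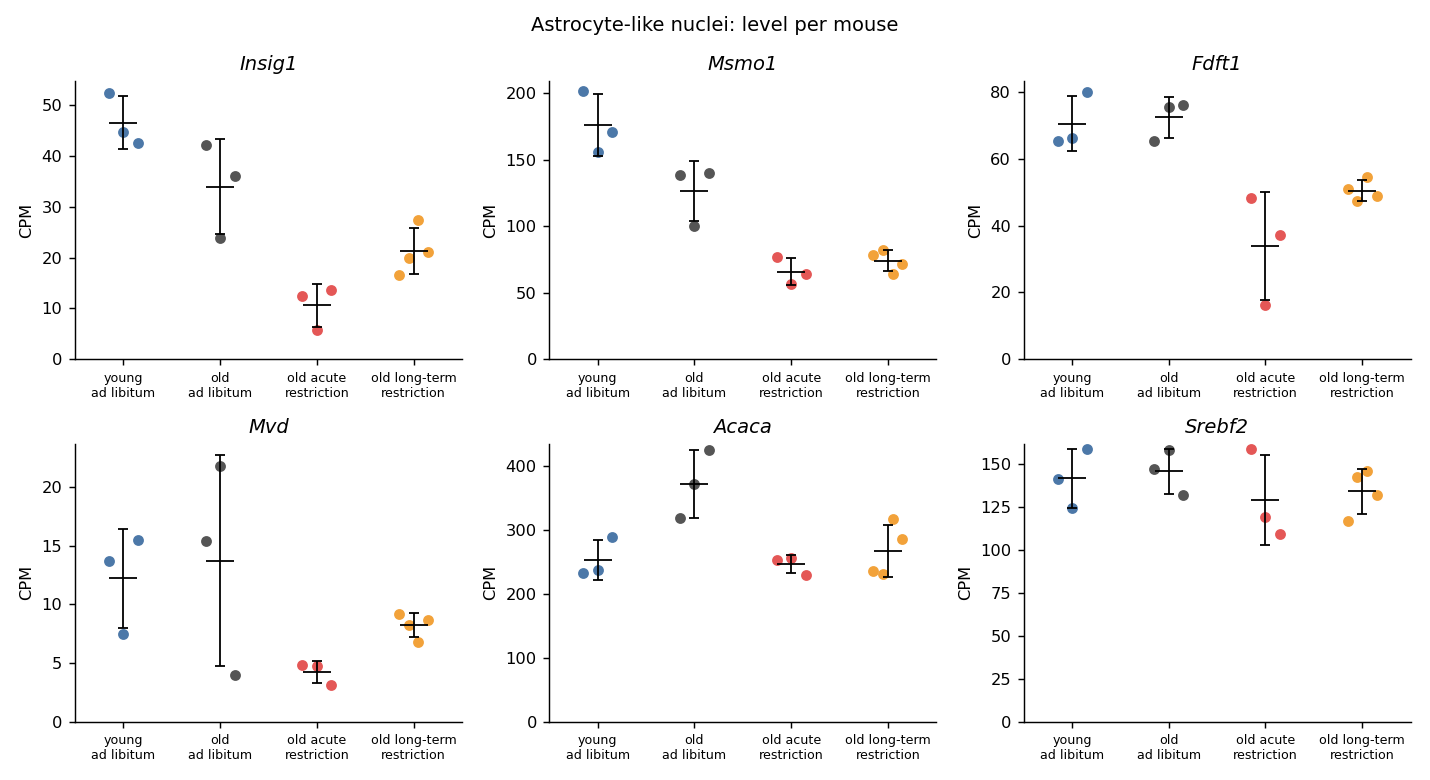
Level in CPM per mouse (points) of Insig1, Msmo1, Fdft1, Mvd, Acaca and Srebf2 in astrocyte-like nuclei by group, with the mean and SD as bars. Insig1 under acute restriction sits at 5.73 to 13.6 CPM, below all other mice, whereas Srebf2 overlaps between all groups.

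As a description, the RefSeq promoter windows (build GRCm38.p6) of the 32 genes were searched for motifs that SREBP and its partners are known to bind. The search had been planned for genes called together, which did not occur. A window covered the 250 bases before a start site, and 25 of the 32 genes had one. The motifs were the sterol regulatory element consensus TCACNCCAC, the CCAAT box (CCAAT), bound by the SREBP partner NF-Y, and the Sp1 GC box (GGGCGG), on both strands. The element consensus was in 1 of 25 genes (Hmgcs1), against 1.22% of the 27025 genes of the table. The CCAAT box was in 19 of 25, against 37.5%, and the GC box in 21 of 25, against 35.4%. A match describes letters only, and windows of different genes share base composition near start sites. The shares of the table cover its genes whether or not they are expressed in these nuclei. Only exact matches were counted, so a missing match does not show that no variant element is there. Binding, and any link to the changes under restriction, was not tested. The windows of Hmgcs1 (chr13:119690101-119690350, plus strand), Mvd (chr8:122443423-122443672, minus strand) and Insig1 (chr5:28071162-28071362, plus strand, the first 201 of its 250 bases, which end before the gene's outermost annotated start) are shown because Hmgcs1 holds the element and Mvd and Insig1 had the most negative acute estimates. Capitals mark the CCAAT box on either strand (CCAAT or ATTGG) and the element consensus, and all other bases are in lower case.
Hmgcs1: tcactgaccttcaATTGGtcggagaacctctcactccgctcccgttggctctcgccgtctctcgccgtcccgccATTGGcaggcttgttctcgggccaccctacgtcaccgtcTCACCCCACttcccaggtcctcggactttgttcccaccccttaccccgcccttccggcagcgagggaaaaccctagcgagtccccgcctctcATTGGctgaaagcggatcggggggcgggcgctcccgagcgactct
Mvd: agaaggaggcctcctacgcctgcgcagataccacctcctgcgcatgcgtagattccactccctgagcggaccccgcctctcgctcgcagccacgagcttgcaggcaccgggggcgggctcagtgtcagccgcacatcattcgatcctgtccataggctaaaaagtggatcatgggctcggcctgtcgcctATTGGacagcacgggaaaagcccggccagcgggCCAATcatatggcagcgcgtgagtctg
Insig1: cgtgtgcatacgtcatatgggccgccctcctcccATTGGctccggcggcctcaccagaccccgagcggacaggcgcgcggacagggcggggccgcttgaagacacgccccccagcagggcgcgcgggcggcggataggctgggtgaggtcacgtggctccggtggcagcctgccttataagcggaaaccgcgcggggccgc
Hmgcs1 holds 3 CCAAT boxes and the element, which begins 137 bases before the start site, Mvd holds 2 CCAAT boxes and no element, and the stretch of Insig1 shown holds 1 CCAAT box and no element. These are the letters of the reference genome and were not measured in these mice.

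In oligodendrocyte-like nuclei, where 31 of the 32 genes passed the filter (Hsd17b7 did not), the groups overlapped in sum. The old mice fed ad libitum had 1836, 1585 and 1865 CPM, the acutely restricted mice 1927, 1516 and 1396 CPM, the long-term mice 1682, 1524, 1509 and 1631 CPM and the young mice 2444, 1487 and 1604 CPM. The means were 8.47% lower under acute and 9.97% lower under long-term restriction, within the spread of the mice. The highest young value came from a mouse with 47 oligodendrocyte-like nuclei. The acute overlap rests on mouse 1 (1927 CPM), whose sum held 163 nuclei and 263632 UMIs. Acutely restricted mice 2 and 3 (1516 and 1396 CPM) lay below every old mouse fed ad libitum. In each group the mouse numbered 1 had the fewest of these nuclei, with 108 in the controls and 186 under long-term restriction. Under acute restriction 24 of 31 genes were below 0, against 45.2% of the 11330 genes tested, with a median log2 change of -0.33 (all genes 0.03). That median ranged from -0.48 to -0.14 when single mice were left out. At an unadjusted p under 0.05, 8 were lower, against 5.06% of all genes, and 0 of the 31 were called by edgeR's quasi-likelihood test, against 1.71%. Depth moved with these groups: median UMIs per nucleus were 1577 to 1888 under acute restriction and 1988 to 3144 in the controls, without overlap, and with them as a covariate the acute median was -0.19. Under long-term restriction the median was -0.11 (all genes 0.02), -0.27 to 0.01 when single mice were left out and above 0 without old mouse 4 fed ad libitum, and 4 were lower at an unadjusted p under 0.05, against 3.47%.

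The members of each role with the most UMIs in oligodendrocyte-like nuclei show this overlap mouse by mouse. Hmgcs1 stood at 67.9, 20.9 and 34.6 CPM in young mice, at 22.0, 25.8 and 38.2 CPM in old mice fed ad libitum, at 37.9, 19.2 and 19.3 CPM under acute and at 12.2, 22.1, 18.5 and 21.4 CPM under long-term restriction. Fdps, the farnesyl diphosphate synthase, stood at 11.3, 31.9 and 31.7 CPM, at 19.2, 21.2 and 22.6 CPM, at 26.6, 18.9 and 18.8 CPM and at 21.3, 34.1, 21.0 and 22.0 CPM in the same order. Both overlapped between all groups. Fdft1 stood at 56.6, 42.8 and 42.3 CPM in young mice, at 66.0, 59.4 and 48.7 CPM in old mice fed ad libitum, at 72.1, 34.1 and 39.9 CPM under acute and at 42.6, 41.7, 42.5 and 53.6 CPM under long-term restriction. Msmo1 stood at 90.5, 41.7 and 47.1 CPM, at 19.2, 41.7 and 69.0 CPM, at 49.3, 24.1 and 36.3 CPM and at 39.6, 41.2, 36.0 and 49.1 CPM in the same order. Msmo1 here spread widely among the controls, unlike in astrocyte-like nuclei.

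Among the regulators, Srebf2 stood at 79.2, 108 and 119 CPM in young mice, at 115, 121 and 121 CPM in old mice fed ad libitum, at 174, 114 and 105 CPM under acute and at 128, 105, 131 and 120 CPM under long-term restriction. Scap stood at 22.6, 53.8 and 56.7 CPM, at 41.2, 56.2 and 46.4 CPM, at 45.5, 63.4 and 58.3 CPM and at 57.9, 48.7, 58.4 and 48.0 CPM in the same order. Neither separated the groups. Scd2 stood at 860, 409 and 377 CPM in young mice, at 517, 252 and 424 CPM in old mice fed ad libitum, at 413, 320 and 241 CPM under acute and at 384, 280, 233 and 242 CPM under long-term restriction, with overlap between the old groups. Of the 31 genes, Dhcr7 had the lowest adjusted p under acute restriction in oligodendrocyte-like nuclei, with a log2 change of -1.15 (SE 0.36, adjusted p 0.116 by edgeR's quasi-likelihood test).

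Whether restriction acted differently on the same gene in different classes of the same mice was tested as an interaction in edgeR, with the mouse as a block. Between oligodendrocyte-like and astrocyte-like nuclei, 1 of the 32 genes differed under acute restriction, against 0.604% of 12587 genes. This was Insig1, whose acute log2 change was 1.66 higher in oligodendrocyte-like nuclei (SE 0.41, adjusted p 0.0296 by edgeR's quasi-likelihood test). In oligodendrocyte-like nuclei Insig1 stood at 24.7, 20.6 and 26.5 CPM in old mice fed ad libitum, at 53.1, 20.5 and 21.5 CPM under acute and at 33.5, 22.6, 12 and 32.7 CPM under long-term restriction. Acutely restricted mouse 1, whose sum held 163 oligodendrocyte-like nuclei, lay above the other old mice there. In astrocyte-like nuclei all 3 acutely restricted mice were low. The call was lost without acutely restricted mouse 1 (difference 1.38, adjusted p 0.16 by edgeR), without acutely restricted mouse 2 (1.47, 0.268), and without old ad libitum mouse 1 (1.48, 0.18), 2 (1.81, 0.0622) or 4 (1.65, 0.0862). The median difference of the 32 genes was 0.39, against -0.00 for all genes, and 0 genes differed under long-term restriction by edgeR, against 0.0874% of all genes. At an unadjusted p under 0.05 there were 6 of 32 under acute restriction, against 7.9% of all genes, and 5 under long-term restriction, against 6.14%.

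Between oligodendrocyte-like and granule-like nuclei 1 of the 32 genes differed under acute restriction, against 1.01% of 15765 genes. This was Elovl6, whose log2 change in oligodendrocyte-like minus that in granule-like nuclei was -0.78 (SE 0.19, adjusted p 0.0460 by edgeR's quasi-likelihood test). Elovl6 stood at 157, 138 and 155 CPM in oligodendrocyte-like nuclei of old mice fed ad libitum and at 129, 101 and 90.5 CPM under acute restriction, without overlap. In granule-like nuclei Elovl6 stood at 62.9, 62.9 and 52.8 CPM and at 58.1, 63.8 and 71.1 CPM. With median UMIs per nucleus as a covariate, the acute estimate for Elovl6 in oligodendrocyte-like nuclei was -0.16 in place of -0.58 (adjusted p 0.978 by edgeR). The class difference with that covariate, an alternative added after the data were seen, was -0.79 (adjusted p 0.0119 by edgeR). The call was lost with doublets kept (adjusted p 0.054 by edgeR), and without acutely restricted mouse 2 (0.214) or 3 (0.32), old ad libitum mouse 1 (0.0783) or 4 (0.248), or young mouse 1 (0.124).

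Ageing, the comparison of old with young mice fed ad libitum, called 1 of the 231 pairs of gene and class, against 1.47% over all genes, with 29 at an unadjusted p under 0.05 (18.2% over all genes). The call was Acaca in oligodendrocyte-like nuclei, where 6.28% of all genes were called. There Acaca stood at 509, 344 and 408 CPM in young mice, at 530, 549 and 579 CPM in old mice fed ad libitum, at 603, 552 and 480 CPM under acute and at 622, 519, 542 and 613 CPM under long-term restriction. The 3 old mice fed ad libitum lay above the 3 young mice, and the old groups overlapped. Acaca rose by 0.51 on the log2 scale (SE 0.14, adjusted p 0.0298 by edgeR's quasi-likelihood test).

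This call was not held by every setting. Acaca spans 272 kb, and with the trend of log2 change on gene length removed its change in oligodendrocyte-like nuclei was 0.08 (adjusted p 0.905 by edgeR). With the median UMIs per nucleus as a covariate it was 0.40 (adjusted p 0.83 by edgeR). DESeq2 gave 0.50 (adjusted p 0.0782) and the replicate block 0.43 (adjusted p 0.0675 by edgeR). The call was also lost without old ad libitum mouse 2 (0.55, adjusted p 0.0732 by edgeR) or 4 (0.49, 0.105) and without young mouse 2 (0.42, 0.245). In the other 8 fitted classes the estimate for Acaca was above 0, from 0.21 in CA3-like to 1.29 in microglia-like nuclei, and 0.57 in astrocyte-like nuclei (adjusted p 0.0858 by edgeR's quasi-likelihood test). With the length trend removed, it was 0.23 in astrocyte-like (adjusted p 0.583 by edgeR), 0.18 in precursor-like (0.43 before) and 0.99 in microglia-like nuclei. In astrocyte-like nuclei Acaca was called without a filter (adjusted p 0.0252 by edgeR), with the term for libraries numbered 1 (0.0205), with the replicate block (0.0359) and with DESeq2 (0.0419). The microglia-like value rests on 243 UMIs of Acaca over all mice, with 0 UMIs in young mouse 1.

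With age the sums of the role groups differed in direction. In granule-like nuclei the mevalonate steps summed to 45.5, 44.8 and 37.4 CPM in young and to 30.3, 35.8 and 37.1 CPM in old mice fed ad libitum, which was 19.2% lower without overlap. The mice numbered 1 were furthest apart (45.5 and 30.3 CPM), so the size of this difference rests in part on them. Without them the lowest young value, 37.4 CPM, still lay just above the highest old value, 37.1 CPM. The squalene-to-cholesterol steps summed to 106, 104 and 87.7 CPM in young and to 80.0, 78.9 and 82.6 CPM in old mice, which was 18.8% lower without overlap. Fatty acid synthesis and desaturation summed to 261, 251 and 250.1 CPM in young and to 264, 277 and 282 CPM in old mice, which was 8.05% higher without overlap. The squalene-to-cholesterol sum was also lower without overlap in inhibitory-like (17.0%), precursor-like (26.9%) and astrocyte-like nuclei (19.0%). Sums of the 4 roles were compared in 14 classes, and groups of 3 mice can separate by chance. Depth separated young from old mice fed ad libitum in granule-like, inhibitory-like, precursor-like and astrocyte-like nuclei alike. Median UMIs per nucleus were 3889 to 6575.5 against 7104 to 12959 in granule-like nuclei, and the part of depth in these sums was not tested. The fatty acid sum holds the longest genes of the set, Acaca (272 kb) and Elovl6 (106.1 kb). The part of gene length in the direction of the sums was not tested. Granule cell markers in astrocyte-like nuclei were higher with age, at 2095 to 2503 CPM in young and 2915 to 3183 CPM in old mice fed ad libitum, and the part this has in the lower sterol sum was not tested. In granule-like nuclei 5 genes were higher and 1 was lower at an unadjusted p under 0.05, against 14.4% and 12.4% of all 16783 genes, and 0 of 31 were called by edgeR, against 2.76%. Closest were Elovl6 at 0.47 (adjusted p 0.0504), Srebf2 at 0.43 (0.0756), Scap at 0.37 (0.0817) and Fdps at -0.58 (0.0884), all by edgeR's quasi-likelihood test. All 4 were called with the term for the libraries numbered 1 (adjusted p of 0.0157, 0.0226, 0.0282 and 0.0327 by edgeR, in that order) and with DESeq2, and all but Fdps (0.0514) with the replicate block. None of them was called with the length trend removed or with median UMIs as a covariate (adjusted p of 0.631, 0.666, 0.731 and 0.648 by edgeR).

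In the other classes the medians under restriction lay nearer to 0 than in astrocyte-like nuclei. In granule-like nuclei the median log2 change was -0.01 under acute and -0.00 under long-term restriction, and the summed level was 0.71% and 2.27% lower with overlap. In precursor-like nuclei, where 20 genes passed the filter, the medians were -0.04 and -0.11. In inhibitory-like nuclei, where 30 passed, the medians were -0.12 and -0.15, and the sum was lower without overlap under both, from 716, 689 and 748 CPM in old mice fed ad libitum to 658, 636 and 632 CPM under acute and 640, 650, 642 and 656 CPM under long-term restriction. These means were 10.5% and 9.85% lower. Under acute restriction 0 of 30 genes were called by edgeR, against 0.00728% of all genes, and 2 were lower at an unadjusted p under 0.05, against 1.48%. Under long-term restriction 0 of 30 were called by edgeR, against 0% of all genes, and 0 were lower at an unadjusted p under 0.05, against 1.19%. In microglia-like nuclei only Acaca and Insig2 passed the filter, so the set could not be followed there.

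**Figure D5:**
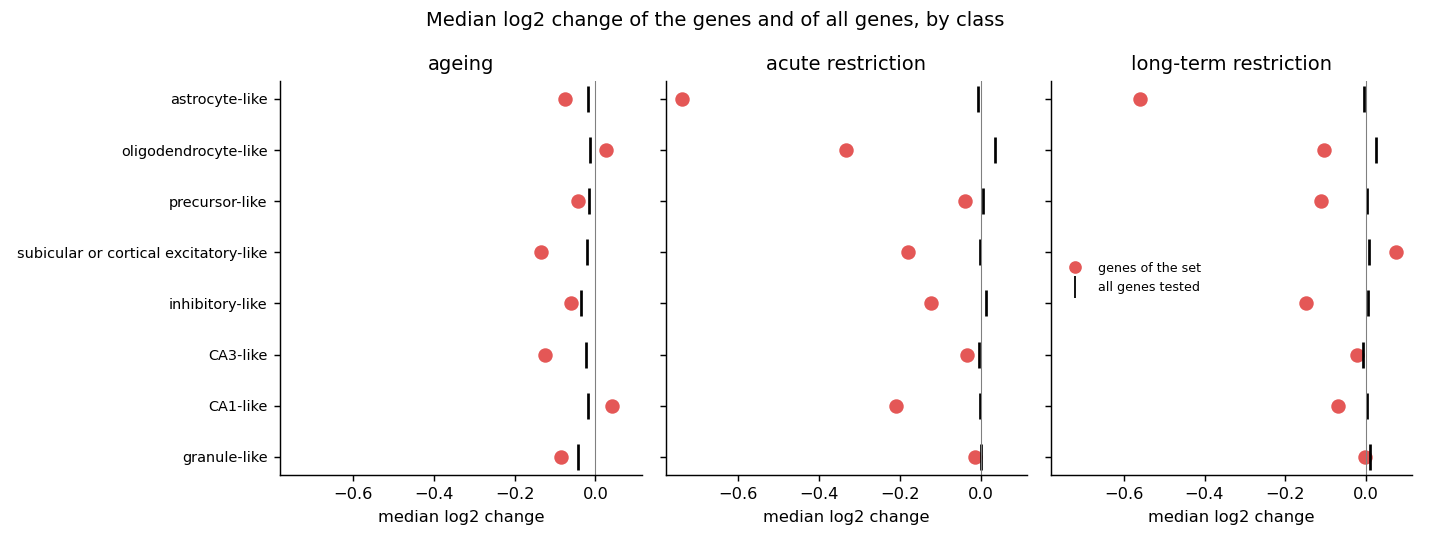
Median log2 change (x axis) of the genes of the set that passed the filter (points) and of all genes tested (ticks) in 8 classes under ageing, acute and long-term restriction. The astrocyte-like point lies at -0.74 under acute and -0.56 under long-term restriction and at -0.08 under ageing, and the granule-like points lie near the ticks.

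Neighbouring pathways were followed with lists of 59 further genes, which were chosen with earlier results of these data known. Their counts beside the shares of all genes are therefore a description and not a test of the lists. In astrocyte-like nuclei under acute restriction the median log2 change was -0.03 for the 7 genes of SREBP processing, -0.13 for 16 genes of sterol uptake, export and turnover, -0.24 for 13 genes of other fatty acid and myelin lipid synthesis and 0.10 for 15 genes of fatty acid oxidation and fasting. None of these was called there by edgeR, and at an unadjusted p under 0.05 there were 0, 1, 3 and 1 genes, against 6.1% of all genes. In oligodendrocyte-like nuclei 2 of 12 oxidation and fasting genes rose under acute restriction, against 0.856% of all genes that were called higher. Pdk4, which restrains pyruvate entry into the citrate cycle, stood at 11, 6.96 and 8.18 CPM in old mice fed ad libitum, at 56.9, 31.8 and 56.0 CPM under acute and at 15.2, 19.1, 9.99 and 16.9 CPM under long-term restriction. Pdk4 rose by 2.51 on the log2 scale under acute restriction (SE 0.30, adjusted p 8.97e-06 by edgeR's quasi-likelihood test). Plin4, a lipid droplet protein, stood at 11, 11 and 10.9 CPM, at 41.7, 78 and 67.7 CPM and at 45.7, 15.6, 19.0 and 25.4 CPM in the same order, and rose by 2.62 (SE 0.29, adjusted p 8.96e-06 by edgeR). Both were lower under long-term than acute restriction, by -1.52 for Pdk4 (adjusted p 0.00436 by edgeR) and -1.59 for Plin4 (0.00274), against 0.0794% of all genes called lower there. The 2 acute calls held in every setting run, but the difference between the restrictions was lost for Pdk4 without acutely restricted mouse 3 (-1.24, adjusted p 0.247 by edgeR) and for Plin4 without acutely restricted mouse 2 (-1.40, 0.152). It was also lost with median UMIs as a covariate (adjusted p 0.231 and 0.0785 by edgeR).

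Abca1, the exporter that loads sterol onto lipoproteins, fell by 0.70 on the log2 scale in precursor-like nuclei under acute restriction (SE 0.15, adjusted p 0.0448 by edgeR's quasi-likelihood test), where 0.0328% of all genes were called lower. It stood at 180, 187 and 171 CPM in old mice fed ad libitum and at 119, 114 and 93.6 CPM under acute restriction, without overlap, and at 94.1, 106, 135 and 129 CPM under long-term restriction. The call of Abca1 was lost with median UMIs as a covariate (adjusted p 0.217 by edgeR) and for 8 of the 13 mice when single mice were left out (log2 change -0.79 to -0.59). With age, Elovl5, an elongase of polyunsaturated chains, rose by 0.42 in granule-like nuclei (SE 0.10, adjusted p 0.0482 by edgeR), a call that was lost for 10 of the 13 mice left out singly (0.37 to 0.47). With the length trend removed Elovl5 was at 0.28 (adjusted p 0.152 by edgeR). Mid1ip1, a partner of acetyl-CoA carboxylase, fell by 1.30 in oligodendrocyte-like nuclei (SE 0.39, adjusted p 0.0468 by edgeR), from 102, 36.2 and 22.1 CPM in young to 22.0, 11.3 and 14.8 CPM in old mice fed ad libitum. The highest old value of Mid1ip1 lay just below the lowest young one, and the highest young value came from the mouse with 47 oligodendrocyte-like nuclei. Without that mouse, young mouse 1, the log2 change of Mid1ip1 was -1.04 and was not called (adjusted p 0.0942 by edgeR). The call was lost for 9 of the 13 mice left out singly and without the 4 libraries numbered 1 (-1.15, adjusted p 0.0539 by edgeR), and the length trend removed gave -0.86 (0.224).

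As a description, the genes outside the set whose level over the 13 mice followed its sum most closely were ranked by Spearman correlation. In oligodendrocyte-like nuclei these were Nova1 (0.90), H2-DMa (0.90), Gsn (0.87), Gsk3b (0.86) and 4930503L19Rik (0.85), of 11299 genes. In astrocyte-like nuclei, a ranking added after the data were seen, they were Dbi (0.94), S100a16 (0.92), Hadhb (0.92), Relt (0.90) and Gm46218 (0.90), of 11431 genes. The 13 mice share groups and library depth across all genes, so no p is given.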

How the data were processed

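Nuclei of 13 hippocampus libraries were sequenced with 10x Genomics 3′ chemistry, per the labels' protocols. The authors deposited counts (UMIs per gene and barcode), made with Cell Ranger 4.0.0 on build mm10, per the submitters' processing notes. Whether intronic reads were counted and strand was used is not given in the sources used here, so 8 of the 32 genes, which overlap another annotated gene, are uncertain (Hmgcs1, Fdft1, Lss, Cyp51, Tm7sf2, Srebf1, Acaca and Elovl6). Of 105759 barcodes, 105427 reached 500 genes and did not exceed 5% of UMIs from mitochondrial genes, and of these the 7386 with the highest Scrublet scores (0.8% per 1000 nuclei) were removed as doublets. Clustering (scanpy 1.11.5, leidenalg 0.10.2, Python 3.11.15) used 2000 variable genes without the 32 genes and the related lists, 30 components and resolution 1. A cluster was named where at least 3 fixed markers were raised at a log2 fold of at least 1 and detected in at least 10% of nuclei. Names were withheld from 9 clusters of mostly doublet calls, from 1 led by another class's genes and, by a choice made after the clusters were seen, from 1 candidate Cajal-Retzius cluster. Counts were summed per mouse and class (at least 20 nuclei) and fitted with edgeR 4.0.16 (limma 3.58.1, R 4.3.3): TMM factors, filterByExpr by group and a robust quasi-likelihood test over all 4 groups in 1 fit per class, in the 9 classes with at least 2 mice in every group. CPM values are counts scaled by the class sum, without a log or TMM factors.

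The 32 genes and the lists were chosen with earlier results of these data known. Mouse-by-mouse values follow a rule (called genes, and in oligodendrocyte-like nuclei the 2 genes of each role with the most UMIs), and other genes given so were chosen after their values were seen. Alternatives were no filter, a term for libraries numbered 1, the replicate number as a block, median UMIs as a covariate, doublets kept, the gene length trend removed, at least 50 nuclei per sum, DESeq2 1.42.0 and leaving out each mouse. The comparison of both restrictions with old mice fed ad libitum, the fits without the 4 libraries numbered 1 and the depth covariate in the class differences were added after the data were seen. On simulated data for ageing in oligodendrocyte-like nuclei (11330 genes) the test recovered 44% of genes changed by 1 and 85% of genes changed by 2 on the log2 scale, and called 0.0629% of unchanged genes. The simulated spread was set by a gene's level alone, without the shared deviation of the libraries numbered 1. No change under restriction was simulated, and astrocyte-like nuclei were not covered, so these rates do not carry over to them.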

Additional observations from a re-analysis of the deposited data

Results flagged for a closer look

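A single mouse stood away from the rest of its group of 4 for 3 of 22 values examined, by Dixon's criterion at the 95% level, which chance meets in about 5% of such groups. Long-term restricted mouse 2 had 76.4 CPM of Elovl6 in granule-like nuclei, and the same mouse had a summed level of the 32 genes of 561 CPM there, above the other 3 mice in both. Long-term restricted mouse 1 had 6.09 CPM of Dhcr7 in oligodendrocyte-like nuclei, which is 2 UMIs, below the other 3 mice. The acute change differed between classes for 2 genes in edgeR's interaction test. The acute log2 change of Insig1 was 1.66 higher in oligodendrocyte-like than in astrocyte-like nuclei. That of Elovl6 differed by -0.78 between oligodendrocyte-like and granule-like nuclei. Both calls were lost when some single mice were left out.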

How the results depend on the processing

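The count of called pairs of gene and class changed with the processing for ageing, for acute restriction and for both restrictions together. Ageing, with 1 call, gave 3 without a filter on low counts, 7 with a term for the libraries numbered 1, 5 with DESeq2, 0 with median UMIs per nucleus as a covariate, 0 with the gene length trend removed, 6 without the 4 libraries numbered 1 and 0 to 3 when single mice were left out. Acute restriction, with 0 calls, gave 5 without a filter, 4 with the term for libraries numbered 1, 2 with doublets kept, 2 with the length trend removed, 3 with DESeq2, 2 without the 4 libraries numbered 1 and 0 to 2 when single mice were left out. Both restrictions together, with 1 call, gave 3 without a filter, 3 with the term for libraries numbered 1, 2 with the replicate block, 2 with DESeq2, 0 with median UMIs as a covariate, 0 without the 4 libraries numbered 1 and 0 to 2 when single mice were left out. With 1 exception (Elovl6 in oligodendrocyte-like nuclei, without a filter), the acute calls among the settings that kept every mouse were Insig1, Msmo1, Fdft1 and Mvd in astrocyte-like nuclei. The replicate block, whose numbers the labels do not tie to a shared batch, gave 5 calls for ageing, without Acaca in oligodendrocyte-like nuclei (0.43), and 2 for acute restriction. Correlations between the deviations of same-numbered mice ran from -0.08 to 0.53 in astrocyte-like nuclei (8 of 16 pairs over 0.1, 6 of 13 mice highest with their own number), from -0.07 to 0.18 in oligodendrocyte-like nuclei (12 pairs, 5 mice) and from -0.17 to 0.81 in granule-like nuclei (11 pairs, 5 mice). Long-term restriction and long-term minus acute restriction gave 0 calls under every setting run. The class difference called 0 to 1 genes between oligodendrocyte-like and astrocyte-like nuclei when single mice were left out. Between oligodendrocyte-like and granule-like nuclei it called 2 without a filter, 0 with doublets kept and 0 to 2 when single mice were left out. Under the settings run, 1 value changed sign: the median of the 31 genes tested in oligodendrocyte-like nuclei under long-term restriction (-0.11) was 0.01 without old mouse 4 fed ad libitum. Apart from the construction of each setting, the causes were not tested. Groups of 3 or 4 mice, the 82 astrocyte-like nuclei of 1 control and genes with few UMIs, such as Mvd, limit the precision.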
